A study of Mus musculus with 4 samples.

Results

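The Sprouty, Spred, Dusp6 and ETV genes are the readout and the brake of fibroblast growth factor (FGF) signalling through the kinase ERK. They were followed here in cells sorted by a reporter of Fgf10 transcription from the mouse submandibular gland, a large salivary gland. There were 10 such genes, taken as a fixed list of Spry1, Spry2, Spry4, Spred1, Spred2, Spred3, Dusp6, Etv1, Etv4 and Etv5, out of 53465 genes in each count file, and all 10 were found and passed the filter on low counts. The 4 libraries came from C57BL/6J mice of the genotype Fgf10CreERT2:Rosa26Tomato fl/fl, in which tamoxifen turns on a red reporter in cells that transcribe Fgf10 at that moment and in their descendants. The 2 adult libraries came from mice given tamoxifen at days 57 and 58 after birth and taken at day 60, and the 2 pup libraries from mice given it at days 4 and 5 and taken at day 7. The dose was 0.1 mg per g of body weight at both ages. Both ages thus carry the same reporter, the same Cre allele and tamoxifen, and no library without tamoxifen or of unsorted cells was analysed here. The reporter depends on Fgf10 transcription itself, so the sort aims at cells that used this promoter at each age, which need not be one cell type. The purity of the sort was not assessed here. The labels do not say whether the replicates of an age were separate animals, or whether animals were pooled. The spread behind each p-value is that between these samples and may be technical.

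As background, FGFs bind receptor tyrosine kinases, which activate RAS, then the kinases RAF and MEK, and finally ERK. ERK in turn raises transcription of its own inhibitors. Sprouty proteins dampen signalling between receptor and RAF, Spred proteins bring the RAS inactivator neurofibromin to the membrane, and DUSP6 is a phosphatase that removes the activating phosphates of ERK in the cytoplasm. ETV1, ETV4 and ETV5 form the PEA3 group of ETS transcription factors and carry FGF signals to the genome, in salivary and lung epithelium among other tissues. Their genes are held down by the repressor Capicua, which ERK inactivates. Because of this loop, the RNA of these genes is often read as a measure of ERK activity, although other receptors that use ERK feed into it too.

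Counts over genes ranged from 7289792 in pup replicate 1 to 21490686 in pup replicate 2. Pup replicate 1 stood apart: the read counter HTSeq gave 76.7% of its tallied reads no feature, against 9.70% to 10.6% in the other libraries. Whether only exons were counted as features is not stated. Of 1107 olfactory receptor genes, 96.6% had a count in pup replicate 1, against 1.54% to 7.77% in the others. The rate over olfactory receptor genes, 13.97 reads per kb of exon, was multiplied by a gene's exon length to give its expected background in that library. Levels are given as CPM, read counts divided by a library size that is scaled by edgeR's TMM factors, and comparisons of level between genes use CPM per kb of exon. Fold changes are of adult over pup, so that a negative log2 value is a lower level at day 60.

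All 10 genes had a negative log2 fold change, with a median of -1.88. Of the 16320 genes tested, 57.1% were negative, with a median of -0.24 (-0.42 without adult replicate 2 and 0.04 without pup replicate 1). The list was chosen with earlier results of these data known, so comparisons with all genes are not independent of them. No member passed edgeR's quasi-likelihood test with Benjamini-Hochberg adjustment (adjusted p 0.263 to 0.780), and neither did any other gene, the share called being 0%; at an unadjusted p under 0.05 edgeR placed 978 genes higher and 1385 lower in adult. limma-voom called 0 members as well and placed 4 lower at an unadjusted p under 0.05 (6.13% of all genes), and edgeR with the replicate number as a block placed 4 lower in the same way (5.31%). By edgeR's unadjusted p, 5 members were lower in adult (Spry1, Spry2, Spry4, Etv4 and Etv5), against 8.49% of all genes, although Etv4 could enter the test only through the pups. DESeq2 called 4 lower in adult at an adjusted p under 0.05 (Spry1, Spry2, Dusp6 and Etv5), against 5.28% of all genes, and gave no adjusted p for Etv4. Both adult libraries lay below both pup libraries for 9 of the 10, Etv1 being the exception, against 27.1% of all genes. With the expected background of pup replicate 1 subtracted and the libraries rescaled, this held for 7 of the 10 (24.1% of all genes), Spred3 and Etv4 then having 0 reads in pup replicate 1. Spred2 was among the 7 only through the rescaling: at the scaling used elsewhere, its 13.9 CPM in that library after subtraction lay below the 14.6 CPM of adult replicate 1. The DESeq2 count rested on particular libraries: it was 0 without adult replicate 1 (3.08% of all genes), 0 without pup replicate 2 (2.3%), 3 without adult replicate 2 (9.94%) and 4 without pup replicate 1 (2.14%). In these bulk samples, fewer cells of a type and less RNA per cell cannot be told apart.

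**Figure D1:**
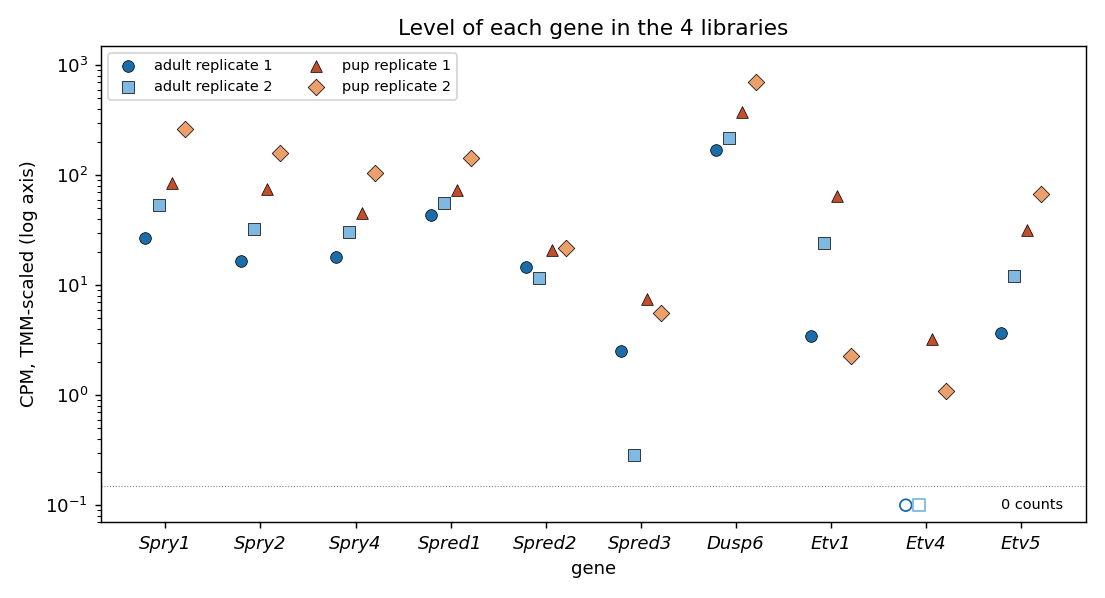
Level of each gene (CPM, log axis) in the 4 libraries, 1 point per library; open points on the bottom line mark 0 counts. Spry1, Spry2, Spry4, Spred1, Dusp6 and Etv5 step up in the same order from adult replicate 1 to pup replicate 2, while Etv1 is high in 1 library of each age and Etv4 is at 0 in both adults.

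Dusp6 (ENSMUSG00000019960, chromosome 10, 99263231 to 99267489, GRCm38) was the most abundant of the 10 per length in each library. It stood at 171 and 219 CPM in adult replicates 1 and 2 and at 375 and 699 CPM in pup replicates 1 and 2. The adults were close to each other and both below the pups, which were further apart. The mean was 195 ± 33.6 CPM (SD, n = 2) in adult and 537 ± 229 CPM in pup, a log2 fold change of -1.46 ± 0.69 (SE), with edgeR adjusted p = 0.417 and DESeq2 adjusted p = 0.0286. Background was expected to give 1.26% of its reads in pup replicate 1, the smallest share among the 10. Per kb, Dusp6 alone made up 63.0% and 55.6% of the summed level of the 10 genes at day 60 and 53.4% and 48.9% at day 7. The adults still held 2237 and 3042 Dusp6 reads.

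Spry1 (ENSMUSG00000037211, chromosome 3, 37639947 to 37644598) and Spry2 (ENSMUSG00000022114, chromosome 14, 105891947 to 105896819) were the next most abundant per kb in every library. Spry1 measured 26.7 and 53.5 CPM at day 60 and 85.1 and 266 CPM at day 7, with a log2 fold change of -2.13 ± 0.73 (SE; edgeR adjusted p = 0.284, DESeq2 adjusted p = 0.0365). The groups did not overlap, but the pups differed 3.12-fold from each other. Of its exon length, 24.4% is shared with the gene Gm42922, and the library kit does not mark strand, so reads of that part cannot be assigned with certainty. Spry2 measured 16.6 and 32.6 CPM at day 60 and 74.3 and 158 CPM at day 7. Its log2 fold change was -2.24 ± 0.62 (SE), with the smallest p of the 10 by edgeR (unadjusted p = 0.0108, adjusted p = 0.263) and by DESeq2 (adjusted p = 0.0119). The edgeR 95% interval of Spry2 ran from -3.76 to -0.73 and that of Spry1 from -3.90 to -0.36.

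Spry4 (ENSMUSG00000024427) was the least abundant Sprouty gene per kb. It measured 18.2 and 30.2 CPM at day 60 and 45.0 and 105 CPM at day 7. The groups did not overlap, and the log2 fold change was -1.63 ± 0.61 (SE; edgeR unadjusted p = 0.0356, adjusted p = 0.300, DESeq2 adjusted p = 0.120). The ratio of the pup mean to the adult mean was 4.37 for Spry1, 4.73 for Spry2 and 3.10 for Spry4. Of the summed CPM per kb of the Sprouty genes, Spry1 contributed 43.9% and 45.6% at day 60 and 39.4% and 48.3% at day 7, and Spry4 18.2% and 15.7% against 12.7% and 11.7%. The share of Spry1 in the adults lay between those of the pups, and the share of Spry4 was higher in both adults than in both pups, a difference that was not tested.

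The fold changes of Spred1 and Spred2 were nearer to 0 than those of the Sprouty genes. Spred1 (ENSMUSG00000027351, chromosome 2, 117121374 to 117182279) measured 43.8 and 55.6 CPM at day 60 and 73.6 and 144 CPM at day 7, a log2 fold change of -1.13 ± 0.53 (SE). Its edgeR 95% interval ran from -2.41 to 0.15, which includes no change. Spred2 (ENSMUSG00000045671, chromosome 11, 19924375 to 20024026) had the smallest log2 fold change of the 10, -0.71 ± 0.71 (SE), with a 95% interval from -2.42 to 1.01. It measured 14.6 and 11.6 CPM at day 60 and 20.9 and 21.9 CPM at day 7, and background was expected to give 33.4% of its reads in pup replicate 1. Adjusted p for these genes was 0.412 and 0.737 by edgeR and 0.220 and 0.661 by DESeq2. Whether the Spred genes differ less between ages than the Sprouty genes was not tested.

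Spred3 (ENSMUSG00000037239, chromosome 7, 29158829 to 29170411) was close to the detection limit. It had 33 and 4 counts at day 60 and 70 and 106 counts at day 7, which is 2.53, 0.29, 7.58 and 5.57 CPM. In pup replicate 1 the 70 reads lay below the 86.9 expected from background. The log2 fold change of -2.22 ± 1.80 (SE) moved to -0.99 once background was subtracted, and its adjusted p was 0.665 by edgeR. The reads of pup replicate 1 thus give no evidence of Spred3 RNA there.

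Etv5 (ENSMUSG00000013089, chromosome 16, 22381309 to 22439719) was the most abundant of the PEA3 genes per kb in every library. It measured 3.68 and 12.2 CPM at day 60 and 31.7 and 67.9 CPM at day 7. The groups did not overlap, with a log2 fold change of -2.64 ± 0.81 (SE) and a 95% interval from -4.61 to -0.68 (edgeR adjusted p = 0.284, DESeq2 adjusted p = 0.0331). The adults differed 3.33-fold from each other, and background was expected to give 57.3 of the 293 reads in pup replicate 1. Adult replicate 1 was the lowest library, and leaving out adult replicate 2 gave the only edgeR call among the members, Etv5 at -3.76 with adjusted p = 0.0162 (4.49% of all genes were then called lower). Without adult replicate 1 the value was -2.06, with adjusted p = 0.426.

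Etv4 (ENSMUSG00000017724, chromosome 11, 101769742 to 101785371) had 0 counts in both adults and 30 and 21 counts in pup replicates 1 and 2. It passed the filter through the pups alone. In pup replicate 1, 43.4 reads were expected from background, more than were seen, so only the 21 reads of pup replicate 2, at 1.10 CPM, stand as evidence of Etv4 RNA. Against a floor of 3 counts over both adults, Etv4 was 9.91-fold lower there than in pup replicate 2. That value leaves out the counting error of the 21 reads. The fitted log2 fold change of a gene at 0 depends on the prior count and is no bound. With Etv4 set at the 9.91-fold value the median of the 10 genes was still -1.88.

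Etv1 (ENSMUSG00000004151, chromosome 12, 38779380 to 38870484) did not follow age. It measured 3.45 and 24.0 CPM at day 60 and 65.1 and 2.26 CPM at day 7. One library of each age was thus high and the other low, a 6.95-fold gap within the adults and a larger one, in the other direction, within the pups. The log2 fold change of -1.29 ± 1.52 (SE; edgeR adjusted p = 0.780) turned to 2.59 without pup replicate 1 and to 0.43 with limma-voom. Background was expected to give 186 of its 602 reads in pup replicate 1, leaving 416 above it. The libraries with high Etv1 also held the most RNA of 5 endothelial marker genes, with summed levels of 749 CPM in adult replicate 2 and 107 CPM in pup replicate 1, against 0.077 and 6.25 CPM in adult replicate 1 and pup replicate 2. Background was expected to give 44.7 of the 107 CPM in pup replicate 1, with shares from 36.5% of the Kdr reads to 69.1% of the Cdh5 reads. Of these markers, Cdh5, Kdr, Tek and Emcn were at 0 in adult replicate 1 and Emcn in pup replicate 2. The part of endothelial RNA in the Etv1 values was not tested.

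**Figure D2:**
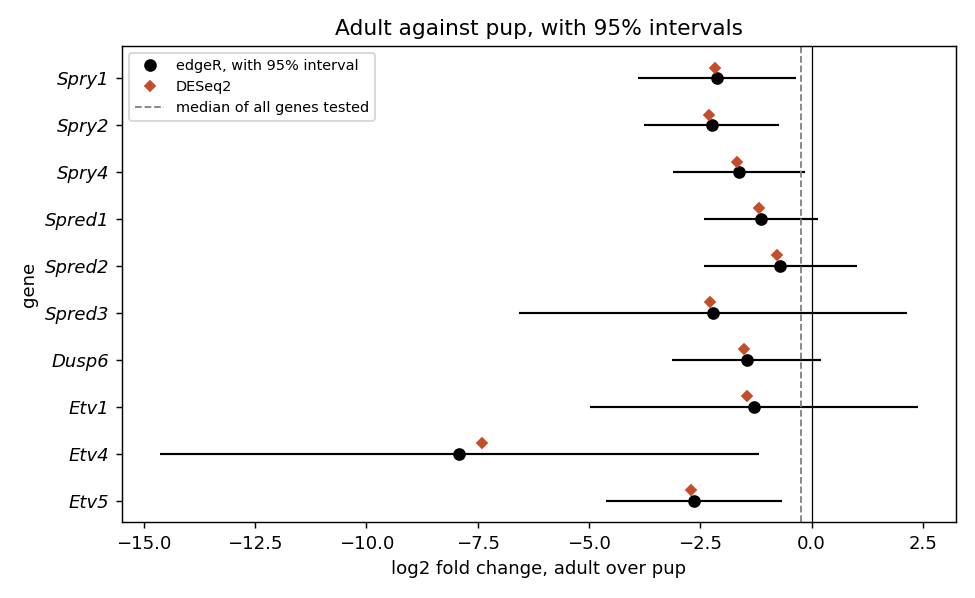
Log2 fold change of adult over pup for each gene: black points and lines are edgeR estimates with 95% intervals (2 libraries per age), orange diamonds DESeq2 estimates, and the dashed line the median of all genes tested, -0.24. All 10 points are left of 0, and the intervals of Spry1, Spry2, Spry4, Etv4 and Etv5 exclude 0 before adjustment; the Etv4 estimate depends on the prior count.

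The measured levels of the 10 genes spanned a wide range per kb of exon. In adult replicate 1 they ran from 54.7 CPM per kb for Dusp6 through 9.20 for Spry1, 7.93 for Spry2, 6.46 for Spred1, 3.82 for Spry4 and 3.17 for Spred2 to 0.90 for Etv5, 0.41 for Spred3 and 0.26 for Etv1, with Etv4 at 0. In pup replicate 2 Dusp6 stood at 223 CPM per kb, Spry1 at 91.4, Spry2 at 75.8, Spry4 at 22.1, Spred1 at 21.3, Etv5 at 16.6 and Spred2 at 4.74. Spry1 and Spry2 exchanged places in pup replicate 1 (29.3 and 35.6 CPM per kb), and their order is within the spread between replicates. Etv5 lay below Spred2 in adult replicate 1 alone (0.90 against 3.17) and above it in adult replicate 2 (2.98 against 2.51) and in both pups (7.73 against 4.52 and 16.6 against 4.74).

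Of the 10 genes, 6 had the same order of libraries: pup replicate 2 highest, then pup replicate 1, adult replicate 2 and adult replicate 1. These were Spry1, Spry2, Spry4, Spred1, Dusp6 and Etv5, and 7.57% of all genes tested had that order, which was picked out after the values were seen. The 10 genes summed to 301 and 439 CPM at day 60 and 781 and 1471 CPM at day 7. The Sprouty genes summed to 61.5 and 116 CPM at day 60 and to 204 and 529 CPM at day 7, a 2.59-fold difference between the pups.

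Markers of other cell types also differed between these libraries, though edgeR called 0 of them. DESeq2 called 1 of 10 mesenchymal, 1 of 6 myoepithelial and basal and 5 of 5 proliferation markers lower in adult (5.28% of all genes). It called 6 of 10 epithelial and 8 of 8 ionocyte markers higher (3.74%), and 0 endothelial or leukocyte markers. Among 5 acinar markers tested it called 1 higher and 2 lower. Of the markers called lower, Ccnb1 and Dcpp2 could enter the test only through the pups, so DESeq2 could call them only lower. Dcpp2 had 0 and 4 counts at day 60 and 120 and 3909 at day 7. The 10 mesenchymal markers, all lower in adult with a median log2 fold change of -1.81, summed to 1261 and 22466 CPM at day 60 and 26181 and 59849 CPM at day 7, with Twist2 at 0 in adult replicate 1. Single libraries moved that median, to -5.37 without adult replicate 2, -0.98 without adult replicate 1 and -1.05 without pup replicate 2. The mesenchymal sum had the library order of the 6 genes above. So did the sum of 5 FGF receptor genes, 128 and 185 CPM at day 60 and 618 and 683 CPM at day 7. The mesenchymal sum was 17.8-fold higher in adult replicate 2 than in adult replicate 1. Between the pups it was 2.29-fold higher in replicate 2. The sum of the 10 genes was 1.46-fold and 1.88-fold higher in these comparisons. Sox10, a transcription factor of glia and also of some salivary epithelial cells, had the same library order, at 25.8 and 55.8 CPM at day 60 and 63.7 and 176 CPM at day 7 (edgeR adjusted p = 0.382, DESeq2 adjusted p = 0.173). Its replicate ratios were 2.16 in adult and 2.77 in pup, beside 1.89 and 2.59 for the Sprouty sum. This comparison of 1 gene was picked after the values were seen and was not tested. Tubb3 and Elavl4, from the same marker list, did not share the library order of Sox10. Tubb3, a tubulin of neurons, had 0 and 1 counts at day 60 and 103 and 61 at day 7. Tubb3 could enter the test only through the pups, so DESeq2 could call it only lower in adult (adjusted p = 0.0125). Elavl4, an RNA-binding protein of neurons, had counts in pup replicate 1 alone. Background was expected to give 26.1 of the 103 Tubb3 reads and 75.3 of the 243 Elavl4 reads there. The 10 epithelial markers, all higher in adult (median 1.79), summed to 10402 and 14519 CPM against 1887 and 4480 CPM, and the 8 ionocyte markers, also all higher (median 6.72), to 7867 and 4974 CPM against 167 and 217 CPM. The 5 proliferation markers, all lower in adult, summed to 10.5 and 2.66 CPM against 151 and 246 CPM. Ccnb1 was at 0 in both adults and Mki67 in adult replicate 2. The 6 myoepithelial and basal markers, all negative (median -1.37, but -0.19 without pup replicate 2), summed to 5127 and 2180 CPM against 4894 and 14222 CPM. Leukocyte markers summed to 12.8 to 96.6 CPM, the highest being pup replicate 1, where background was expected to give 39.9 CPM, and Cd3e was at 0 in 3 libraries. The 6 acinar markers differed widely between replicates, at 54.9 and 7238 CPM at day 60 and 45.0 and 381 CPM at day 7, with Aqp5, Dcpp1 and Dcpp2 at 0 in adult replicate 1 and Smr3a in adult replicate 2. The part of these differences in cell makeup in the values of the feedback genes was not tested.

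**Figure D3:**
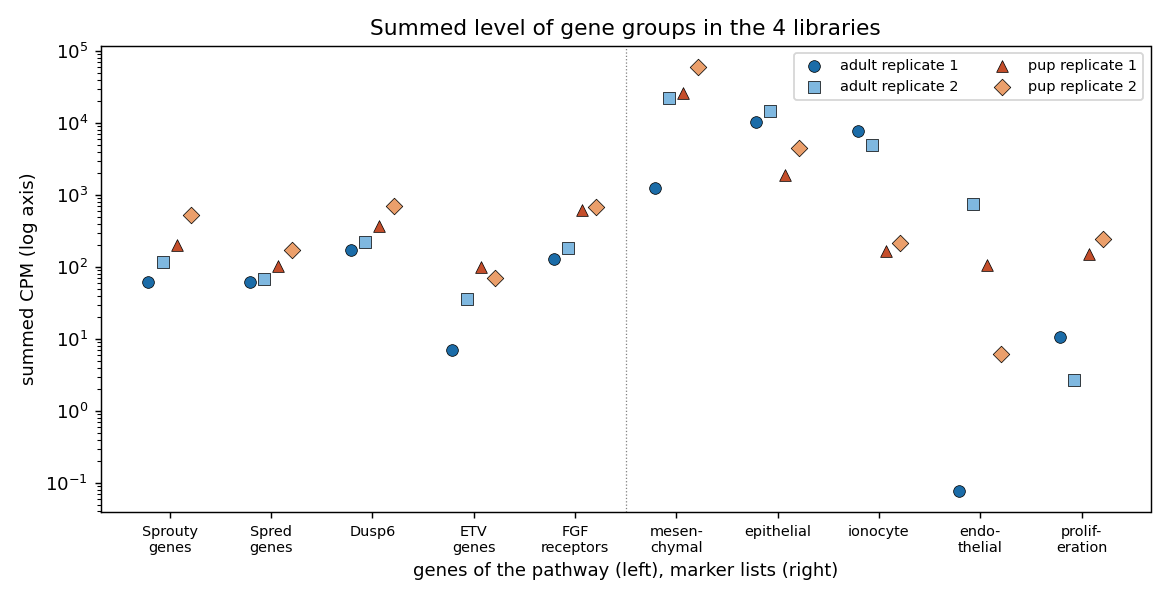
Summed CPM (log axis) of the feedback and ETV genes and FGF receptors (left) and of marker lists of cell types and proliferation (right), 1 point per library. The Sprouty sum and the mesenchymal sum have the same order of libraries, and so do the Spred sum, Dusp6 and the FGF receptor sum. Within the adults the mesenchymal sum spans 1261 to 22466 CPM and the Sprouty sum 61.5 to 116 CPM.

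The genes upstream of the loop were examined from a list of receptors, ligands and cascade components. Of 4 FGF receptor genes tested (Fgfr4 did not pass the filter), 3 had a negative log2 fold change (median -1.47, but -2.50 without adult replicate 2). DESeq2 called 2 lower in adult, where 5.28% of all genes were. These were Fgfr1, at 69.9 and 98.2 CPM at day 60 and 406 and 436 CPM at day 7, and Fgfr2, whose IIIb form is the main receptor of FGF10, at 31.8 and 26.1 against 164 and 177 CPM. The third, Fgfrl1, a receptor without a kinase domain, overlapped between ages (26.5 and 33.7 against 22.3 and 69.4 CPM). Among 6 ligands tested, 2 were higher and 4 lower in adult, with a median of -1.43, also with Fgf18 at the floor value below. Fgf10, which drives the Cre, measured 195 and 40.3 CPM at day 60 and 27.3 and 24.1 CPM at day 7. Its adjusted p was 0.284 by edgeR and 0.103 by DESeq2, and background was expected to give 64.3 of its 252 reads in pup replicate 1. Fgf1, a ligand of all FGF receptors, was at 136 and 110 against 27.7 and 64.4 CPM. Fgf7, the other main ligand of the IIIb form of FGFR2, was at 39.5 and 11.6 against 76.3 and 124 CPM. Fgf18, among the 4 lower ligands, had 0 counts at day 60 and 67 and 202 counts at day 7. It passed the filter through the pups alone, so it could only come out lower. It was 95.3-fold lower in adult on the same floor and against pup replicate 2, leaving out the counting error of the pup reads. Adult replicate 1 had the most Fgf10 RNA and the lowest Spry1, Spry2, Spry4, Spred1, Dusp6 and Etv5. Whether the level of Fgf10 RNA is related to that of the feedback genes was not tested.

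The RAS-ERK cascade between receptor and ERK was split. Of 27 genes tested, 16 were higher and 11 lower in adult, with a median log2 fold change of 0.12. DESeq2 called 1 higher, near the share of 3.74% over all genes, and 0 lower, against 5.28%. That median ran from -0.05 without pup replicate 1 to 0.51 without pup replicate 2 and was 0.36 without adult replicate 2. That 1 was Rps6ka1, the gene for an ERK-activated ribosomal S6 kinase, at 161 and 115 CPM at day 60 and 43.2 and 40.8 CPM at day 7. Nf1, the gene for the neurofibromin that Spred proteins recruit, was at 4.06 and 9.65 against 49.0 and 21.5 CPM (DESeq2 adjusted p = 0.0707), and background was expected to give 221 of its 453 reads in pup replicate 1. Shc1, an adaptor of receptor kinases, was at 50.6 and 52.3 against 71.5 and 134 CPM. Map2k2, which encodes the kinase MEK2, was at 210 and 160 against 59.5 and 137 CPM.

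Other genes that ERK induces were split. Of 19 tested, 7 were higher and 12 lower in adult (median -0.56), and DESeq2 called 2 higher and 7 lower, where 3.74% and 5.28% of all genes were. The median was -2.64 without adult replicate 2, where that of the 10 genes was -2.38, -1.08 without pup replicate 1, -0.38 without adult replicate 1, -0.15 without pup replicate 2 and -1.43 with limma-voom. Without adult replicate 2 it thus no longer lay nearer to 0 than that of the 10 genes. Dusp5, a nuclear ERK phosphatase, was at 36.8 and 47.6 CPM at day 60 and 217 and 559 CPM at day 7, a log2 fold change of -3.20 ± 0.72 (SE; edgeR adjusted p = 0.226). Dusp4, another nuclear MAP kinase phosphatase, went the other way, at 112 and 70.3 against 19.6 and 24.6 CPM (2.04 ± 0.50, SE; edgeR adjusted p = 0.241, DESeq2 adjusted p = 0.0139). Flrt3, a membrane protein that binds FGF receptors, had a log2 fold change of -2.97 ± 0.78 (SE; edgeR adjusted p = 0.256, DESeq2 adjusted p = 0.00280). The immediate early genes Fos and Egr1 were very abundant in all 4 libraries, Fos at 3450 to 9846 CPM and Egr1 at 2630 to 4359 CPM. Neither passed, with log2 fold changes of 0.85 ± 1.86 and -0.42 ± 1.40 (SE). Fos was higher in both adults than in both pups, and Egr1 was lower in both, by less than its SE.

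ETS factors outside the PEA3 group were split too, with 10 of 18 tested higher in adult and a median of 0.03. DESeq2 called 4 higher and 0 lower, where 3.74% and 5.28% of all genes were. This median too turned on single libraries, at -0.86 without adult replicate 2 but 0.35 without the other adult library, and at -0.17 and 0.30 without pup replicates 1 and 2. Elf3, an ETS factor of epithelial cells, measured 592 and 460 CPM at day 60 and 33.1 and 49.0 CPM at day 7. Elf5, which acts in secretory epithelium, stood at 60.9 and 74.1 against 7.58 and 1.16 CPM. Its 70 reads in pup replicate 1 lay below the 82.1 expected from background, so the 7.58 CPM is no evidence of Elf5 RNA there. Ehf, another ETS factor of epithelial cells, was at 464 and 767 against 63.4 and 123 CPM. Ets2, which ERK activates by phosphorylation, was at 386 and 404 against 201 and 411 CPM. Beside these, Etv1, Etv4 and Etv5 together summed to 7.13 and 36.2 CPM at day 60 and 100 and 71.3 CPM at day 7, with 31.0 of the 100 CPM expected from background.

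The promoters of 8 of the 10 genes were in the RefSeq table for GRCm38.p6, as 10 windows of 300 bases, from 250 before to 50 after the start. They were searched on both strands for the Capicua octamers TGAATGAA, TGAATGGA, TCAATGAA and TCAATGGA, and for the ETS site CCGGAAGT, since Capicua is the ERK-controlled repressor of several of these genes. A Capicua octamer was found for 3 genes (Dusp6, Spry2 and Spred3), in 3 of the 10 windows, against 3.84% of 32851 promoters. The ETS site was in 0 of the 10 windows, against 3.89% of all. Dusp6 held 2 copies of TCCATTGA (the reverse complement of TCAATGGA), 1 starting 24 bases before the start and 1 starting 1 base after it. The stretches before the start are given 5′ to 3′ on the gene's strand because Dusp6 and Spry2 were called by DESeq2 and Spred3 was not; capitals mark the octamer or its reverse complement.
Dusp6, chr10:99263177-99263230, plus strand: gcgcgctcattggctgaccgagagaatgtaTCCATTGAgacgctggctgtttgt
Spry2, chr14:105896836-105896903, minus strand: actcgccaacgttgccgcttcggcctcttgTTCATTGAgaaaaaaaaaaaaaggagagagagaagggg
Spred3, chr7:29168648-29168687, minus strand: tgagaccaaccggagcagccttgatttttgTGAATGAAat
The match is a description of these letters and not of binding. Spry1 and Etv5, which were also called by DESeq2, had no octamer in these windows, so the match did not separate the called genes from the others. The 10 windows had a median of 58.7% G and C and 19 CpG dinucleotides, against 52.7% and 7 over all promoters.

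**Figure D4:**
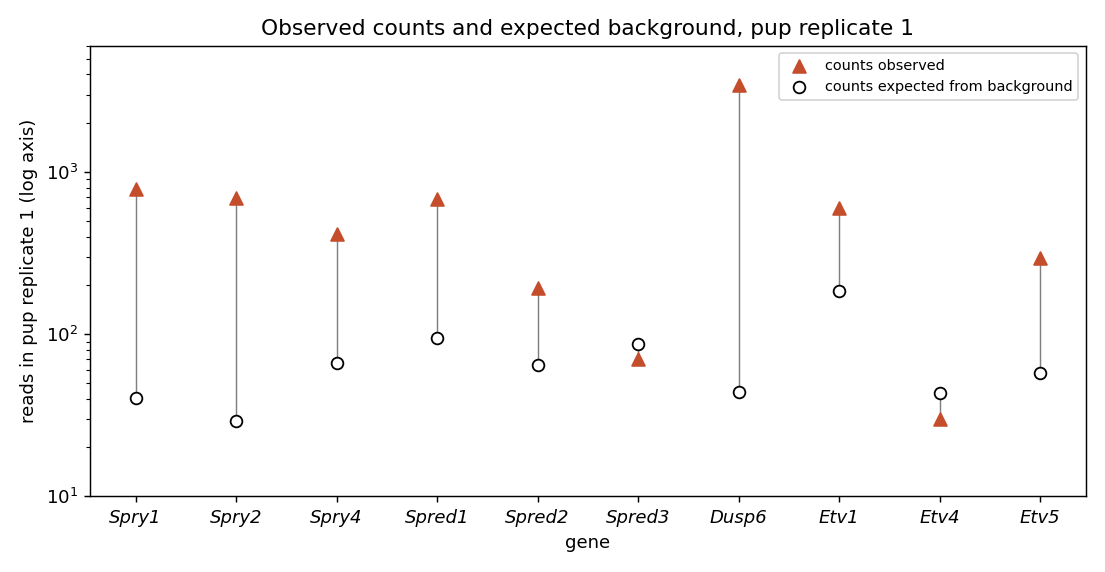
Reads observed in pup replicate 1 (triangles) and reads expected from its background (open circles) for each gene, on a log axis. Spred3 and Etv4 lie below their expected background, background makes up 30.9% of the Etv1 and 33.4% of the Spred2 reads, and Dusp6, Spry1 and Spry2 stand far above it.

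The contribution of single libraries was followed for each gene. Without pup replicate 1 the log2 fold changes were -2.73 for Spry1, -2.69 for Spry2, -2.12 for Spry4, -1.54 for Spred1, -1.84 for Dusp6 and -3.10 for Etv5, each further from 0 than with all libraries. Without pup replicate 2 they were -1.08, -1.60, -0.90, -0.57, -0.94 and -1.99 in the same order, each nearer to 0. With the background of pup replicate 1 subtracted they were -2.25, -2.40, -1.72, -1.24, -1.65 and -2.71, and DESeq2 then called 5 members, Spry4 being the added one (5.35% of all genes). At an unadjusted p under 0.05, edgeR placed 6 members lower after that subtraction (6.89% of all genes), 6 without pup replicate 1 (4.58%), 5 without adult replicate 2 (13.5%), 1 without adult replicate 1 (6.11%) and 0 without pup replicate 2 (4.42%). An exact two-sided permutation test of 2 against 2 libraries cannot go below 0.333, the value reached by 9 of the 10 genes.

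**Figure D5:**
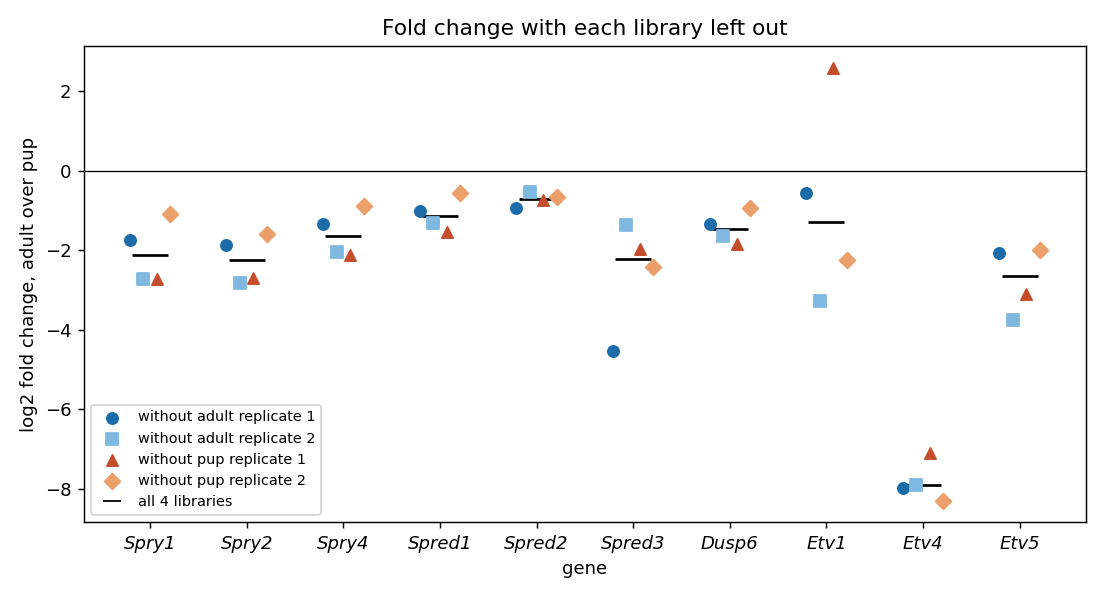
Log2 fold change of each gene with all 4 libraries (black bars) and with each library left out (coloured points). For Spry1, Spry2, Spry4, Spred1, Dusp6 and Etv5 the value is nearest to 0 without pup replicate 2, and Etv1 changes sign without pup replicate 1.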

How the data were processed

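RNA of sorted cells was made into libraries with the SMART-Seq HT kit from 1 ng of total RNA, per the labels' protocols. The deposited values are raw read counts per Ensembl gene. The submitters' processing notes name cutadapt 1.18, STAR 2.5.2a, HTSeq 0.11.0, R 3.5.1, DESeq2 1.20.0 and GRCm38; the sources used here do not give options, annotation or strand. HTSeq's tallies of unassigned reads, 31.5% to 84.4% of each library, were left out. In 2 whole-series tables, 8 columns were not used, as their names match no single sample. Symbols, positions and exon lengths are from GENCODE (GRCm38; 53360 genes matched). Spry3 was not analysed here.

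The main test was edgeR 4.0.16's quasi-likelihood test in R 4.3.3 over 16320 genes (TMM, filterByExpr with minimum count 10 and total 15, age as the only term, Benjamini-Hochberg threshold 0.05; common biological coefficient of variation 0.895). The SE is the fold change over the square root of F. Alternatives were other scalings and filters, DESeq2 1.42.0, limma-voom of limma 3.58.1, a replicate block, each library left out, and subtraction of background (exon length times the olfactory receptor rate, 0.5 of it on X and Y). Groups and replicate numbers are from the sample titles. Replicates of an age were not copies of 1 library: the chi-square statistic of their counts over genes was 222 times its degrees of freedom in adult and 155 times in pup. Counting intervals and floors cover counting error only.

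The members and lists were chosen with earlier results of these data known. By rule the text names all 10 members, from each pathway list the 3 genes of smallest p and the 2 of highest mean CPM, and marker lists as sums; 1 gene that the rule names is not reported here, and 1 marker list is given by 3 of its genes only. Genes at 0 were named beside those sums. The shared library order, the Sox10 ratios and the endothelial comparison were picked after the values were seen. DESeq2 fits of the members without each library or with background subtracted, and the overlap of the ages after that subtraction, were also added after seeing the data.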

Additional observations from a re-analysis of the deposited data

How the results depend on the processing

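With all 4 libraries, edgeR called 0 members under every scaling, filter and block tried, and 0 genes over all under the other scalings, the block and the subtraction of background; limma-voom also called 0. Over all genes edgeR called 284 higher and 231 lower in adult with no filter beyond 1 count, and 13 higher and 2 lower with at least 10 counts in every library of an age, while DESeq2 called 610 higher and 862 lower and 4 members lower. With 1 library left out, where the lone sample is assumed to vary like the other age, edgeR called 0 to 247 genes higher, 0 to 733 lower, 0 members higher and 0 to 1 members lower, and DESeq2 0 to 4 members lower; with background subtracted DESeq2 called 5 members. The cause of these changes was not tested. The log2 fold change of Etv1 turned to 0.43 with limma-voom and ran from -3.28 to 2.59 with 1 library left out; the other 9 members stayed negative under all alternatives run. Library totals moved the median of all genes from -0.24 to -0.62 and that of the members from -1.88 to -2.18, and upper-quartile factors to -0.42 and -2.01. Replicate numbers are shared by the ages, but same-numbered libraries did not deviate together (correlation over genes -0.098); with the replicate number as a block edgeR called 0 genes higher and 0 lower, and 0 members, and 4 members were lower at an unadjusted p under 0.05 (5.31% of all genes) against 5 without the block (8.49%). Low counts and background limit Etv4 and Spred3, whose reads in pup replicate 1 lay under the expected background.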
